A study of Mus musculus with 147 samples.

Results

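The 8 libraries described here were labelled as colonic macrophages of mice fasted for 12 h, out of 147 libraries in the series and 110 in its refeeding experiment. They were chosen by their labels alone, not by any measured value, and were set against all 44 fasted libraries of the other 6 populations collected in the same experiment. Those were 8 libraries each of adipose tissue macrophages, blood monocytes, microglia and peritoneal macrophages, and 6 each of pancreatic islet macrophages and Kupffer cells, the macrophages of the liver. Every animal in these groups had been fasted for 12 h. A further 9 colonic libraries and 49 libraries of the other 6 populations came from mice given food for 2 h after the 12 h fast, and these refed libraries served as a separate set. Flow cytometry with antibodies chosen for each population was used to sort the cells, a library started from 400 cells, and polyA RNA was made into libraries by the Smart-seq2 protocol. The libraries fell into 4 cohorts, with no Kupffer library in cohort 3, and cohort was a term in every fit but the alternatives that leave it out or replace it. The antibodies, the strain, sex and age of the mice, and any genetic modification were not stated in the labels used here, nor was whether same-numbered libraries came from the same mouse. P-values therefore measure the spread between these libraries. The comparison addresses which genes set the macrophages labelled colonic apart from macrophages of other tissues under the same fast.

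Intestinal macrophages lie under an epithelium that faces bacteria and food. They are known as a population that blood monocytes keep replenishing, that takes up dying cells and bacteria, presents antigen on MHC class II molecules, and makes the cytokine IL-10, whose signal restrains inflammatory responses. TGF-beta and the microbial and dietary ligands of the lumen are known to shape their gene expression, and part of the population, in the muscle layer and around vessels and nerves, is known to be long-lived.

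Each library held between 9898784 and 23684196 gene counts, and the 8 colonic ones between 10539672 and 22557771. Levels are given as CPM, counts per 1000000 counts of the library, after TMM scaling, a scaling between libraries, unless a sentence says otherwise. Differences are log2 ratios of the macrophages labelled colonic over the mean of the 6 other populations, each population weighted equally, with the standard error of the fit (± SE, 8 against 44 libraries). A gene passed the test when its Benjamini-Hochberg adjusted p from edgeR's quasi-likelihood test was below 0.05 and its log2 difference was at least 1 in size. Because these are bulk samples, a smaller number of cells of one type and less RNA per cell cannot be told apart.

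RNA of other cell types was present in the colonic libraries, and 2 of them stood apart. In sums of CPM without TMM scaling, the list of pancreatic acinar genes, which encode digestive enzymes, reached 290148 in replicate 3 and 260976 in replicate 5, which was 29.01% and 26.1% of their counts. In the other 6 colonic libraries the sum lay between 1809 and 49518, and in the 44 other libraries it did not exceed 1421. All 8 colonic libraries lay above all 44. The plasma cell list, mostly immunoglobulin chains, ran from 165 in replicate 5 to 93099 in replicate 2, and 7 of the 8 lay above the highest other library at 972. The list of epithelial genes ran from 129 to 6635 and was higher in each of the 8 than in any other library, where the highest sum was 65.99. B cell genes summed to 113.5 to 933, against at most 526 elsewhere. T cell and innate lymphocyte genes summed to 16.7 to 143 in the 8 and reached 703 in another population. The part of this RNA in the results that follow was not tested by separating cells; counts are given again without replicates 3 and 5, and without replicates 2 and 8, the 2 highest in plasma cell RNA.

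**Figure D1:**
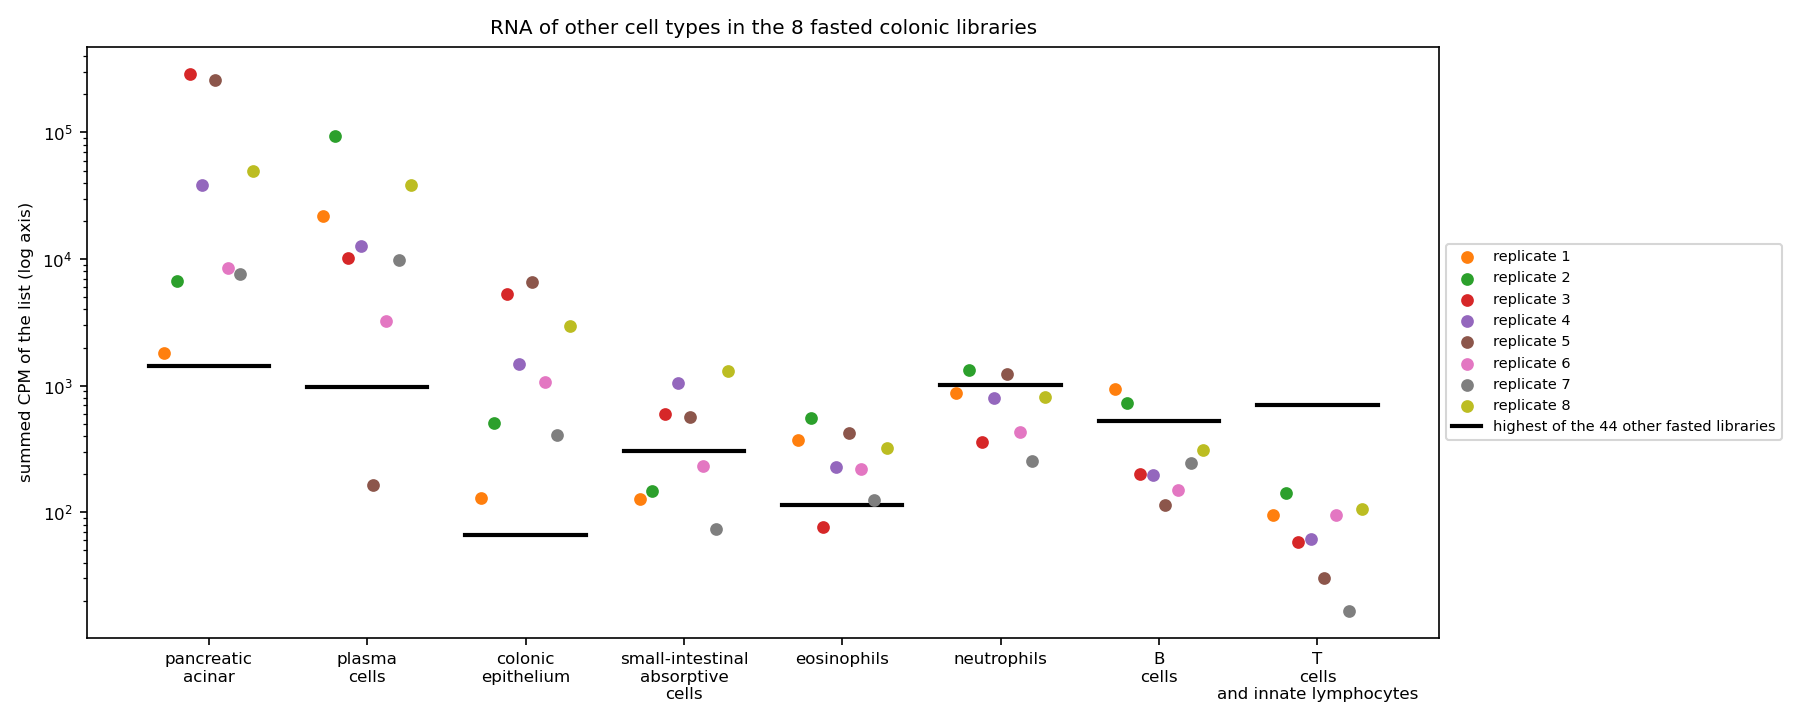
Summed CPM, without TMM scaling, of 8 marker lists of other cell types (horizontal axis) on a log axis; coloured points are the 8 fasted libraries labelled colonic and each black bar is the highest of the 44 other fasted libraries. Acinar RNA of replicates 3 and 5 lies above that of the other 6, and the acinar and epithelial sums of all 8 lie above the bar, while no colonic library exceeds the bar for T cells and innate lymphocytes.

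The macrophage part of the label was borne by the levels of macrophage genes. Of 16 core genes shared by macrophages, 1 was higher than the mean of the other populations (Aif1, an actin-bundling protein of macrophages), 0 were lower, and the median difference was 0.21. Csf1r, the receptor for the survival factor CSF1, was at 2218, 4720.2 and 5740.4 CPM (lowest, median and highest of the 8, the order used throughout) and ranged from 1751 to 13218 in the 44. The difference of 0.14 ± 0.11 did not pass (adjusted p = 0.533), nor did that of Adgre1, which encodes F4/80, at -0.08 ± 0.15 (adjusted p = 0.866). For both genes the 8 libraries lay inside the range of the 44. Of 18 genes listed as marks of colonic macrophages, 17 were higher, 0 lower, and the median difference was 3.91, and the same 17 genes passed without replicates 3 and 5 and without replicates 2 and 8. The one that did not pass was Mmp12, a metalloprotease. For comparison, 14% of the 16114 genes tested were higher and 1.33% lower, with a median of 0.15. The list was drawn up with earlier results of these data known, so its direction is a description and not independent evidence.

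The epithelial RNA that the libraries carried did not settle the tissue part of the label. In CPM without TMM scaling, the small-intestinal genes Sis (sucrase-isomaltase) and Rbp2 (a retinol-binding protein of enterocytes) had medians of 32.96 and 25.2, and Defa24, a defensin of Paneth cells of the small intestine, had a median of 51.6 and was detected in all 8. Lct (lactase) and Fabp6 (an ileal bile acid carrier) reached only 1.71 and 0.0710, and Defa20 and Defa23 were at 0. Of the lists, 0 of 18 small-intestinal absorptive genes and 2 of 17 Paneth cell genes were at 0 in all 8 libraries. So were 8 of 15 genes listed for colonic absorptive cells, among them Car1, Hoxb13 and Hoxd13. Others of that list were detected: Slc26a3, a chloride exchanger of surface colonocytes, reached 49.3 and had a median of 3.49. Lypd8, a secreted protein of colonic epithelium on none of these lists, reached 781 CPM after TMM scaling in replicate 5, with the next library at 355. Not all 8 libraries lay above the others for Lypd8. The summed small-intestinal list lay above all 44 other libraries in 4 of the 8, the colonic absorptive list also in 4, and the Paneth cell list, which holds a lysozyme that other macrophages express, in 0. These lists were added after values had been seen. The libraries are therefore called macrophages labelled colonic, after their label, and the segment of gut they came from was not determined.

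Other tissues' macrophage genes gave a mixed picture. Of 12 genes listed for microglia, Kupffer cells, peritoneal macrophages and adipose macrophages each, 0 were higher in the libraries labelled colonic than in the population the list is named for, and 12, 10, 10 and 9 were lower. In these 4 comparisons 6.26%, 3.30%, 5.70% and 2.53% of all tested genes were lower. Of 12 blood monocyte genes, 1 was higher and 7 were lower than in monocytes, beside 13.7% and 4.09% of all tested genes. Against the mean of the 6, in contrast, 4, 6, 5, 6 and 4 of these lists' genes were higher, beside 14% of all tested genes. That mean holds 5 populations that a list is not named for, and why these genes were higher was not tested. Clec1b, a lectin receptor of Kupffer cells, was at 60.8, 110.1 and 166 CPM, below the 468 to 941 CPM of Kupffer cells and above every library of microglia and islet macrophages, whose highest were 7.39 and 4.55. Serpinb2, a protease inhibitor of peritoneal macrophages, was at 18.7, 192 and 485 CPM against 1501 to 2710.4 in peritoneal macrophages, and its highest level in the other 5 populations was 20.5. Olfml3, a microglial gene, was at 37.9, 161 and 337 CPM against 1217 to 1979 in microglia and 181 to 398 in islet macrophages, and overlapped with the islet range.

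**Figure D2:**
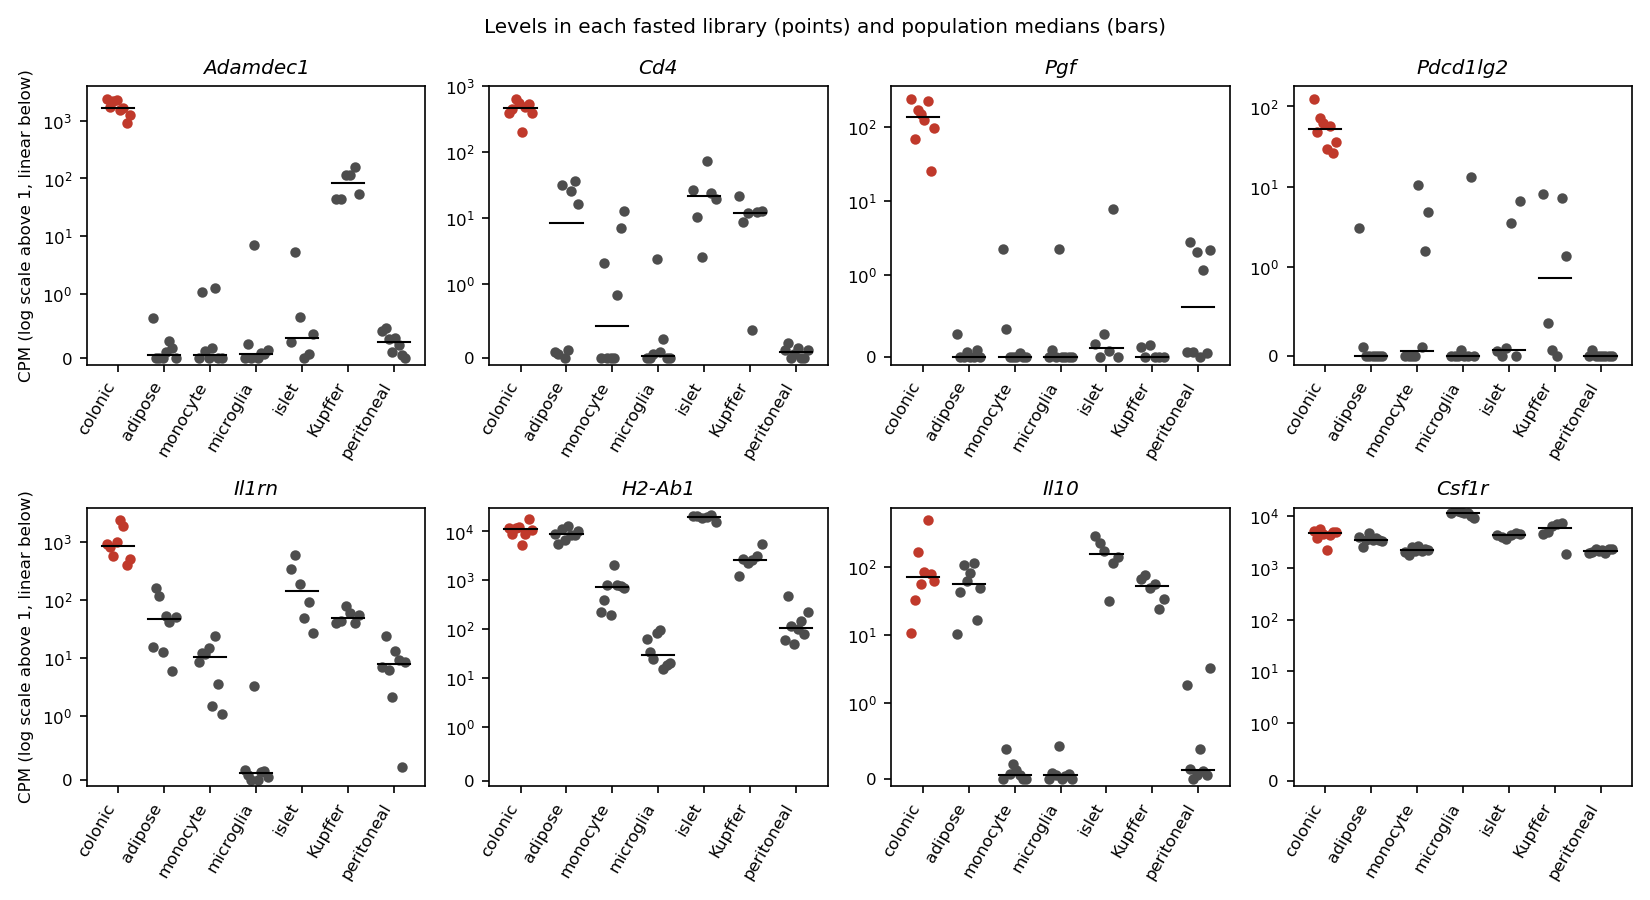
CPM after TMM scaling of 8 genes in each fasted library (vertical axis, log scale above 1 and linear below); red points are libraries labelled colonic, grey points the 6 other populations, and bars are medians. For Adamdec1, Cd4, Pgf and Pdcd1lg2 all 8 red points lie above all 44 grey ones; for Il10 and H2-Ab1 they overlap with adipose, islet or Kupffer libraries, and for Csf1r they lie inside the range of the grey ones.

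Against the mean of the 6 populations, 2258 of 16114 genes were higher (14%) and 215 lower (1.33%). Of the higher genes, 1468 had a positive difference in each of the 4 cohorts taken alone, and of the lower genes 210 had a negative one in each. Single-cohort values were differences of mean log2 CPM with a prior count of 2, not taken from the fit. In cohort 3 the mean of the other populations held no Kupffer cells. Taken 1 population at a time, the macrophages labelled colonic had 2324 genes higher (14.4%) and 1008 lower (6.26%) than microglia, 2201 higher (13.7%) and 659 lower (4.09%) than monocytes, and 2141 higher (13.3%) and 919 lower (5.70%) than peritoneal macrophages. Fewer genes differed from adipose tissue macrophages, with 1205 higher (7.48%) and 407 lower (2.53%), from Kupffer cells, with 754 higher (4.68%) and 532 lower (3.30%), and from islet macrophages, with 1020 higher (6.33%) and 230 lower (1.43%). The counts for Kupffer cells and islet macrophages rest on 6 libraries each and the others on 8. Of the 6 islet libraries, 2 carry 2 replicate numbers; without them 760 genes were called against islet macrophages in place of 1250, and 636 when in addition the replicate number was a block in place of cohort. Against 1 common mean of the 44 libraries in place of the mean of 6 population means, 687 genes were higher, and the difference turned negative for Bmp2, Cd163, Cx3cr1, Gata6, Itgb5, Olfml3, Plac8, Serpinb2 and Timd4, which are described here as higher than the mean of the 6. Without replicates 3 and 5, 1792 genes were higher (11.3%) and 163 lower (1.03%) than the mean of the 6.

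**Figure D3:**
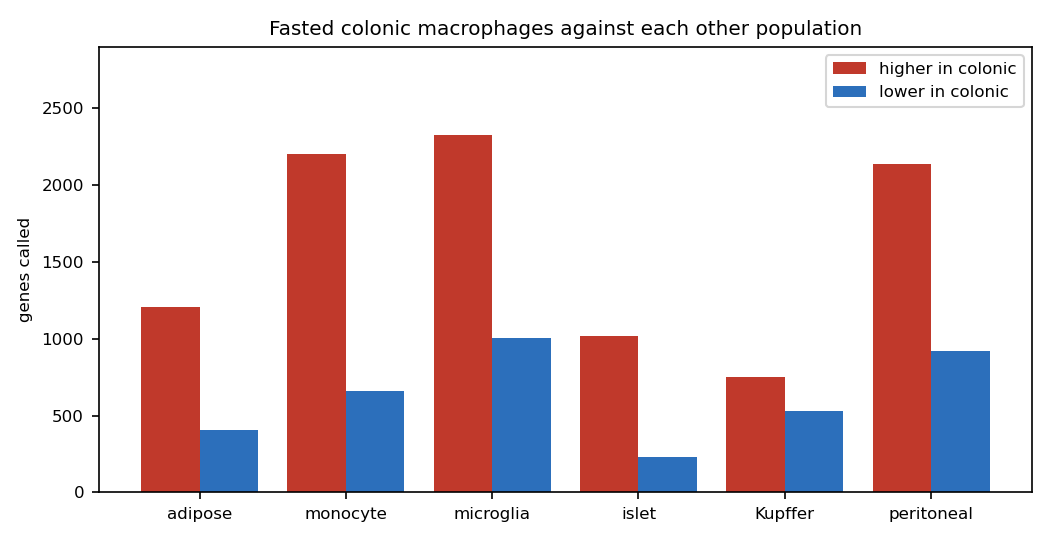
Number of genes (vertical axis) that passed the test as higher (red) or lower (blue) in the macrophages labelled colonic than in each other fasted population. The totals are highest for microglia, monocytes and peritoneal macrophages and lowest for islet macrophages and Kupffer cells.

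A gene was counted as specific when it passed against each of the 6 populations in the same direction. There were 162 such genes higher (1.01% of those tested) and 8 lower (0.0496%). For 63 genes (0.391%) all 8 libraries lay above all 44 others, and 46 of the 162 were among these; for 0 genes (0.00%) did all 8 lie below. Of the 162, 151 had a positive difference in each cohort. The islet was the population with the smallest difference for 49 of them, microglia for 31, peritoneal macrophages for 30, Kupffer cells for 22, monocytes for 18 and adipose macrophages for 12.

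Much of this set belongs to other cells' lists. Pancreatic acinar genes made up 24, epithelial genes 12, and plasma cell genes 3 of the 162, 42 in all stood on a list of other cells drawn up at the outset, 12 on the added intestinal lists, and 10 were immunoglobulin genes. For 110 of the 162 the highest of the 8 libraries was over 50 times the lowest, or a library was at 0, and for 88 the highest library was replicate 3 or 5. Without replicates 3 and 5 there were 88 specific higher genes, of which 83 were among the 162, and without replicates 2 and 8 there were 85, of which 82 were among them. With a filter that asked for at least 10 counts in 26 of the 52 libraries, 23 were left, and limma's voom gave 394. Leaving out any 1 of the 8 kept between 67.3% and 93.8% of the 162, the fewest without replicate 8.

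The specific genes with the largest smallest-of-6 difference, among those on no list of other cells drawn up at the outset, included genes of gut epithelium and its glands. Defa24, Defa30, AY761184, Adh6a and Rbp2 stand on the added lists. Defa24 was at 13.4, 59.9 and 264 CPM, and the 44 other libraries did not exceed 0.568. Defa30 and AY761184, further defensin genes, and Slco4c1, an organic anion carrier, tracked Defa24 most closely over the 52 libraries, with Pearson correlations of log2(CPM + 1) of 0.997, 0.988 and 0.972; in 44 of the libraries all 4 genes were at or near 0, and reads of the near-identical defensin genes cannot be assigned with certainty. Cdh17, a cadherin of the intestinal epithelium, was at 7.39, 61.7 and 241 CPM with at most 1.03 elsewhere. Lypd8, a secreted protein of colonic epithelium, was at 0.0618, 102.8 and 781 and did not exceed 3.12 elsewhere, but 1 of the 8 libraries was within the others' range. Dmbt1, a mucosal glycoprotein, was at 7.72, 452 and 4963, and Bhlha15, the transcription factor MIST1 of secretory cells, at 0, 24.3 and 101.1. Adh6a, Hkdc1, Mkx and Rbp2 were of the same kind in their levels, with medians between 9.16 and 29.9 CPM. Serpini2, a serpin of the exocrine pancreas, was at 0, 22.7 and 228. Of these genes, Cdh17, Dmbt1, Lypd8, Hkdc1, Mkx and Bhlha15 were highest in replicate 5, and Serpini2, Adh6a and, by a small margin over replicate 8, Defa24 in replicate 3, the libraries with the most acinar RNA. The part of acinar and epithelial RNA in their levels was not tested.

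Among the same leading genes, 2 have known roles outside the epithelium. Dio2, the deiodinase that activates thyroid hormone, was at 18.8, 57.3 and 127 CPM, and each of the 8 lay above each of the 44, which reached 0.284. Clec4b2, a C-type lectin receptor of myeloid cells, was at 0, 7.63 and 30.4 CPM and at 0 counts in all 44 other libraries, with 7 of the 8 above 0. Both genes were highest in replicate 5.

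The specific genes that were steady across the 8 libraries form a different group. For 17 of the 162 the highest library was within 5 times the lowest, and 0 of these 17 stood on a list of other cells or were immunoglobulin genes. All 17 were higher also in the refed libraries, 11 of them did not overlap with any of the 44, and 12 were again specific without replicates 3 and 5. They were singled out after their values had been seen. Adamdec1, a secreted metalloprotease known from gut macrophages, was at 904, 1667 and 2367 CPM, while Kupffer cells held 44.3 to 156 and no library of the other 5 populations exceeded 7.03. Its difference was 10.91 ± 0.58 from the mean of the 6 (adjusted p = 1.27e-18), and 4.09 from Kupffer cells alone (adjusted p = 0.0065). In single cohorts the difference from the mean, taken from mean log2 CPM and not from the fit, ran from 10.99 to 12.53. The cohort 3 value left out Kupffer cells, the nearest population.

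The steady group includes genes whose products lie at the cell surface. Jaml, an adhesion molecule of leukocytes that binds an epithelial partner, was at 141, 303 and 534 CPM and at most at 37.9 elsewhere (8.06 ± 0.61, adjusted p = 1.52e-14). Tspan13, a tetraspanin, was at 317, 572 and 684 CPM, above the 236 reached in the 44, and Csf2rb, the shared receptor chain for GM-CSF, IL-3 and IL-5, was at 443, 893 and 1526 with a highest other library of 514. For Csf2rb the lowest of the 8 thus fell inside the others' range. Nmur1, a receptor for the neuropeptide neuromedin U, was at 12.7, 25.4 and 53.1 CPM with at most 4.14 elsewhere.

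It also includes a secreted protein and enzymes. Dkk3, a secreted protein of the Dickkopf family, was at 56.1, 82.6 and 168 CPM, and Kupffer cells, at a median of 4.98, came nearest. Lta4h, the enzyme that makes leukotriene B4, was at 155, 375 and 724 CPM, above the highest of the 44 at 150.3 (2.40 ± 0.22, adjusted p = 1.04e-12). Mdh2, the mitochondrial malate dehydrogenase, was at 245, 379 and 651 CPM and also lay above all 44, whose highest was 241, but its difference was only 1.46 ± 0.15. Emd, Hjurp, Nabp1 and Svbp, which encode a nuclear envelope protein, a centromere chaperone, a DNA-binding protein and a tubulin-modifying partner, had differences between 1.61 and 2.49. The remaining members were 1700071M16Rik and 9830107B12Rik, known by clone names, and Cd4, Cd80 and Pdcd1lg2, which are described with their lists.

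Of the lists of macrophage functions, 10 genes were specific and higher. They were Adamdec1, Ahr, Cd4, Cd80, Ffar2, Il1rn, Lta4h, Pdcd1lg2, Pgf and Plaur. Without replicates 3 and 5, 4 of the 10 remained specific (Adamdec1, Ffar2, Lta4h and Pgf), and without replicates 2 and 8 these 4 and Pdcd1lg2. Each of the 10 stayed higher than the mean of the 6 under both. Promoter sequences were given for 7 of the 10, and 4 of these held a match to the AP-1 motif, the binding letters of the JUN and FOS factors. They are shown because the windows of the 7 held no match to the other motifs given below. A role of AP-1 in these genes was not tested. Ffar2 and Il1rn have further start sites, whose windows held no such letters. The motif searched was TGANTCA on both strands, in the 250 bases before a start site in RefSeq for build GRCm38.p6, and capitals mark the match.

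Cd80 (chr16:38458683-38458932, plus strand, match beginning 42 bases before the start site): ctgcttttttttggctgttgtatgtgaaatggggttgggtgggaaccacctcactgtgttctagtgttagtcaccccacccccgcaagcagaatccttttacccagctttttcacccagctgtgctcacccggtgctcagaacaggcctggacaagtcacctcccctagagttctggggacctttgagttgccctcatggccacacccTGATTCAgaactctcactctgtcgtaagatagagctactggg
Ffar2 (chr7:30823776-30824025, minus strand, 52 bases before): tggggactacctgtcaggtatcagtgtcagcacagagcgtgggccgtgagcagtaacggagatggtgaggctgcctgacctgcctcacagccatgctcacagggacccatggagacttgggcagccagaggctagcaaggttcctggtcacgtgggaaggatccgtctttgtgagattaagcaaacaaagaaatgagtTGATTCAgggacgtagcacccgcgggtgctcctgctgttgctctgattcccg
Il1rn (chr2:24336610-24336859, plus strand, 141 bases before): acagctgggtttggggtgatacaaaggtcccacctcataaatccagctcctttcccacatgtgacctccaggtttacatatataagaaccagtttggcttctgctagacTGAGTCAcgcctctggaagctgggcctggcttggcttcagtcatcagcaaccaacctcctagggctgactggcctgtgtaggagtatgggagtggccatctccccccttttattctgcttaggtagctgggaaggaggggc
Plaur (chr7:24462233-24462482, plus strand, 69 bases before): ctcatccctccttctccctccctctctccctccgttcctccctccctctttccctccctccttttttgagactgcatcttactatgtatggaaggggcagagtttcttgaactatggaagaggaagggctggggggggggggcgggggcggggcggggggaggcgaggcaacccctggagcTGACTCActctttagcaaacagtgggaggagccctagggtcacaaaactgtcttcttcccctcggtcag

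Promoters were given for 70.99% of the 162 specific genes and for 27025 genes in all. The shares that follow were counted over a longer window, 250 bases before and 50 bases after a start site. The AP-1 letters were found for 14.8% of these specific genes and for 8.97% of all. The RUNX letters TGTGGT were found for 19.1% and 18.9%, the PU.1 letters GAGGAAGT for 5.22% and 3.69%, the interferon response element for 6.96% and 3.99%, and the AhR letters TNGCGTG for 5.22% and 5.84%. The NF-kB motif was found for 0.870% and 0.174%, and those for SMAD (GTCTAGAC or CAGCAGACA) and MAF (a motif that holds a match to TGANTCA) for 0 of the specific genes, against 0.951% and 0.167% of all. A match is a description of letters in a window, not a binding site, and no test was made.

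Of 18 genes of antigen presentation and costimulation, 13 were higher and 0 lower, with a median difference of 2.63. Of all tested genes 14% were higher. Larger shares were higher among immediate early and heat shock genes (24 of 28) and chemokine ligands (17 of 22). Of the antigen presentation and costimulation genes, 14 passed without replicates 3 and 5. Without replicates 2 and 8, 11 passed, and H2-Oa and Icosl were lost. H2-Ab1, a chain of the MHC class II molecule, was at 5168, 11210.5 and 17634 CPM (3.23 ± 0.26, adjusted p = 3.23e-13). Islet macrophages held as much or more, 15382 to 21558 CPM, and adipose macrophages 5467 to 12905, whereas Kupffer cells, monocytes, peritoneal macrophages and microglia had medians of 2631, 735, 107.1 and 29.3. Over the list, 15 of 18 genes were higher than in peritoneal macrophages, 13 than in microglia, 12 than in monocytes, 8 than in Kupffer cells, 4 than in adipose and 3 than in islet macrophages. In the same order, 13.3%, 14.4%, 13.7%, 4.68%, 7.48% and 6.33% of all tested genes were higher. Ciita, the master regulator of these genes, Cd74, H2-Aa, H2-Eb1, H2-DMb1, H2-DMb2 and H2-Oa were among those that rose above the mean.

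Pdcd1lg2, Cd274, Cd80 and Icosl on this list encode ligands of inhibitory and costimulatory receptors, and the first 3 are described. Pdcd1lg2, which encodes PD-L2, was at 26.4, 52.6 and 124 CPM, and each of the 8 exceeded the highest of the 44 at 13.3 (8.68 ± 1.17, adjusted p = 6.76e-08). Cd274, which encodes PD-L1, was at 189, 600.1 and 836 CPM and also lay wholly above the others, which reached 148, although not all 6 single contrasts passed (largest adjusted p = 0.0756). Cd80, a ligand of CD28 and CTLA-4, was at 46.9, 87.2 and 141 CPM with at most 39.3 elsewhere. For these 3 genes no library labelled colonic overlapped with any other. Dendritic cell genes, which share this function, summed without TMM scaling to 171 to 1183 CPM in the 8 and to as much as 1083 in monocytes. Of 11 tested, Ccr7, Cd24a, Cd209a and Flt3 were higher than the mean of the 6 and 0 lower, beside 14% higher of all tested genes. Xcr1 had a median of 1.79. Ccr7 had a median of 48.7 and reached 436 in replicate 1, against at most 151 in the 44. Il22ra2, a listed gene that was not tested, had a median of 4.48. It reached 329 in replicate 1 and 298 in replicate 2, against at most 7.35 in the 44. No other gene of the list exceeded, in any of the 8, its highest level in the 44. The dendritic sum and Pdcd1lg2 were also highest in replicate 1. The part of dendritic cell RNA in the levels of this list was not tested.

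Of 14 genes listed for long-lived resident macrophages, 8 were higher and 0 lower (median 2.19). Cd4, the T helper coreceptor that part of the gut macrophages also carry, was at 201, 466 and 643 CPM, and all 8 lay above the highest other library at 74.99 (7.57 ± 0.71, adjusted p = 1.38e-11). Among T cell genes, Cd3e had a median of 6.84 CPM and Trac of 3.92, both without TMM scaling. Of 13 tested genes listed for T cells and innate lymphocytes, 7 were higher than the mean of the 6 and 0 lower. Of all tested genes 14% were higher. The part of T cell RNA in the Cd4 level was not tested. Timd4, which encodes the phosphatidylserine receptor TIM-4, was at 37.8, 108.4 and 267 CPM, above all libraries of monocytes and microglia and below the medians of Kupffer cells (498) and peritoneal macrophages (518). The islet range, 0 to 115.7, overlapped with it. Cd163, the haemoglobin scavenger receptor, was at 10.4, 412 and 559.6 CPM, against medians of 1896 in adipose macrophages and 1216 in Kupffer cells. Against adipose macrophages alone, 8 of the 14 genes were lower and 1 higher, beside 2.53% and 7.48% of all tested genes.

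Genes of the early, monocyte-derived stage moved in both directions: of 15, 3 were higher and 3 lower (median 0.34). Of all tested genes 14% were higher and 1.33% lower. Against monocytes 11 of the 15 were lower and 0 higher, beside 4.09% lower of all tested genes. Ly6c2, a surface mark of classical monocytes, was at 0.0459, 6.88 and 42.5 CPM against 890.1 to 1948 in monocytes. Ccr2, the receptor that brings monocytes out of the blood, was at 33.8, 70.3 and 473 CPM against 1528 to 3091, and replicate 7 alone lay above 207, the second highest value. Plac8, a lysosomal protein of monocytes, was at 43.3, 127 and 229.9 CPM, again below the 609 to 881 of monocytes but above every library of microglia, islet and peritoneal macrophages. Fn1, fibronectin, and Hp, haptoglobin, fell below the mean by 3.01 and 3.29 on the log2 scale.

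Sensors of the gut lumen and of vitamins were higher for 11 of 22 genes and lower for 0 (median 2.57). Over all tested genes these shares were 14% and 1.33%. Ffar2, a receptor for short-chain fatty acids, was at 6.89, 78.4 and 102.5 CPM. The medians of the 6 other populations were all under 0.1 CPM, though a single library reached 48.5, so the ranges overlapped (9.59 ± 0.78, adjusted p = 6.22e-14). Ahr, the aryl hydrocarbon receptor, was at 58.5, 432 and 631 CPM with at most 134 elsewhere, and the lowest of the 8 lay inside the others' range. Its target and repressor Ahrr, the aldehyde dehydrogenase Aldh1a2 that makes retinoic acid, the vitamin D receptor Vdr and the niacin receptor Hcar2 were also higher.

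The IL-10 axis and feedback inhibitors held 10 higher genes and 1 lower of 23 (median 0.92), beside 14% and 1.33% of all tested genes. Il10 itself was at 10.6, 70.6 and 474 CPM and rose by 4.83 ± 0.49 over the mean of the 6 (adjusted p = 4.14e-11). Its level was not particular to these libraries: islet macrophages ranged from 31.7 to 283, Kupffer cells from 23.5 to 75.9 and adipose macrophages from 10.3 to 113.8, and microglia, monocytes and peritoneal macrophages were near 0. The difference from islet macrophages was -0.56 (adjusted p = 0.785). The highest of the 8 was replicate 6, and without it the difference from the mean was 4.16. Il10ra, the ligand-binding receptor chain, was at 186, 436 and 621 CPM and did not pass (-0.07 ± 0.15, adjusted p = 0.883).

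Decoys and antagonists of IL-1 were among the genes of this list that rose. Il1rn, the IL-1 receptor antagonist, was at 400.1, 854 and 2352 CPM (5.99 ± 0.44, adjusted p = 1.93e-14), and 5 of the 8 lay above the highest other library, at 601. Il1r2, the decoy receptor, was at 64.2, 711 and 1199.7 CPM against 48.1 to 390.1 in islet macrophages and medians of at most 3.65 in the other 5 populations. The NF-kB feedback genes Nfkbiz, Tnfaip3 and Tnip3 were higher too. Trem2, a lipid receptor of macrophages, was the lower one, at 0.396, 38.9 and 135 CPM against a median of 1269.6 in microglia (-1.36 ± 0.37, adjusted p = 0.0052).

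Inflammatory cytokines and growth factors were higher for 17 of 25 tested genes and lower for 0 (median 2.31). Over all tested genes 14% were higher and 1.33% lower. Without replicates 3 and 5, 15 of the cytokine and growth factor genes were higher. Il1b, encoding IL-1 beta, was at 1032, 3165 and 5170.0 CPM (4.85 ± 0.41, adjusted p = 8.93e-13) but overlapped with islet macrophages at 873 to 5117. Tnf was at 175, 426 and 1488 CPM (2.24 ± 0.31), with islet macrophages at 605 to 1028 and adipose macrophages at 103.9 to 636. Pgf, a growth factor of the VEGF family, was the member whose 8 libraries all lay above the rest, at 25.9, 137 and 242 CPM against at most 7.67 (9.56 ± 0.85, adjusted p = 7.74e-13). Il23a and Il12b, subunits of IL-23, passed as well, Il23a at 0, 7.003 and 27.2 CPM and at 0 in every library of 4 populations. Against islet macrophages only 1 of the 25 was higher and 1 lower, beside 6.33% and 1.43% of all tested genes.

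TGF-beta and its integrins gave 10 higher genes and 0 lower of 22 (median 0.95), beside 14% and 1.33% of all tested genes. Itgb5, an integrin chain known from gut macrophages, was at 40.8, 64.4 and 187 CPM (1.44 ± 0.22), below the medians of microglia (280.3), islet macrophages (180.2) and Kupffer cells (105.4). Without peritoneal macrophages in the mean, its difference was -0.15. Tgfbr2, the type II receptor, was at 323, 425 and 663 CPM and did not pass (0.03 ± 0.16, adjusted p = 0.983). Runx3, a factor that acts with SMADs, was at 7.94, 55.7 and 139.7 CPM (3.11 ± 0.66, adjusted p = 3.05e-04), with islet macrophages at 86.004 to 169. The feedback genes Smad6, Smad7 and Skil were higher, and so was Tgfb1. Without replicates 2 and 8, Smad6 and Tgfb1 no longer passed.

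Among chemokines, 17 of 22 ligand genes were higher and 3 lower, with a median of 2.95, beside 14% and 1.33% of all tested genes. The higher ones include ligands for neutrophils (Cxcl1, Cxcl2 and Cxcl3), for monocytes (Ccl2, Ccl7, Ccl8 and Ccl12) and for T cells (Ccl17, Ccl22, Cxcl9, Cxcl10 and Cxcl16). Cxcl3 was at 20.3, 53.9 and 142 CPM, with islet macrophages at 0.0771 to 24.9 and medians at or near 0 in the other 5 populations. Ccl9, a monocyte and dendritic cell attractant, fell, at 10.4, 121 and 379 CPM against 109.6 to 3192 in the 44 (-2.26 ± 0.31, adjusted p = 1.37e-07). Ccl6 and the B cell attractant Cxcl13 were the other 2 lower genes. Against islet macrophages 0 of the 22 were higher and 3 lower, beside 6.33% and 1.43% of all tested genes.

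Of 14 chemokine receptors, 7 were higher and 0 lower (median 1.94), beside 14% and 1.33% of all tested genes. Cx3cr1, the fractalkine receptor and a defining mark of gut macrophages, was at 536, 983 and 2512 CPM (1.88 ± 0.26, adjusted p = 1.61e-07). Microglia held 6894 to 13596 CPM, monocytes 1135 to 1735 and islet macrophages 1105 to 2939, while peritoneal macrophages had a median of 1.15. Ccr3, the eotaxin receptor, was at 76.9, 203 and 390.1 CPM and above every other library, whose highest was 37.8. The eosinophil list, to which Ccr3 belongs, summed to 76.6 to 552 CPM, 7 of the 8 lay above the highest other library at 114.7, and all 4 of its tested genes were higher than the mean of the 6. Siglecf had a median of 65.95 and Il5ra, the IL-5 receptor, of 32.7. Among the granule genes, Prg2 was detected in 6 of the 8, with a median of 2.88, and Epx and Ear1 were at 0 in all 8. Prg3 and Ear6 had medians of 0 but each reached 6.07, and both were at 0 in all 44 other libraries. The part of eosinophil RNA in the Ccr3 level was not tested.

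Enzymes of prostaglandin and leukotriene synthesis were higher for 7 of 17 genes and lower for 2 (median 0.72). The shares over all tested genes were 14% and 1.33%. Ptgs2, the inducible cyclooxygenase COX-2, was at 426, 901 and 1635 CPM, and all 8 exceeded the highest of the 44 at 243 (6.09 ± 0.70, adjusted p = 3.40e-09). Islet macrophages came nearest, at 80.7 to 243. Alox5ap, which presents arachidonic acid to 5-lipoxygenase, fell, at 29.99, 75.4 and 103.4 CPM against 55.8 to 655 (-1.62 ± 0.18, adjusted p = 6.00e-10). Lta4h, described above, and Alox5 and Ptgs1 rose; Alox5 did not pass without replicates 3 and 5.

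Secreted proteases, lysozyme and nucleases gave 10 higher and 2 lower of 26 (median 1.43), beside 14% and 1.33% of all tested genes. Dnase1l3, a nuclease that clears DNA of dying cells, was at 784, 1743 and 2391 CPM (7.15 ± 0.51, adjusted p = 8.71e-15). Kupffer cells held 423 to 1437 and overlapped, and the highest library of the other 5 populations was 239.9. Acp5, the tartrate-resistant phosphatase, was at 342, 737 and 884 CPM, again with Kupffer cells nearest at 371 to 1062. Mmp13, Mmp14, Mmp2 and Mmp9, matrix metalloproteases, and Plaur, the urokinase receptor, at 146, 852 and 1180.2 CPM with at most 418 elsewhere, rose. Ctsd, a lysosomal protease, fell, at 324, 513 and 1009 CPM against 6629.6 to 9714 in microglia.

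Receptors for dying cells and modified proteins gave 13 higher and 3 lower of 27 (median 1.44), beside 14% and 1.33% of all tested genes. Cd300lf, an inhibitory receptor for phosphatidylserine and ceramide, was at 88.3, 488 and 855 CPM with at most 182 elsewhere, and 7 of the 8 lay above that. Mrc1, Stab1, Axl and Gas6, an uptake receptor, a scavenger receptor, a TAM kinase and its ligand, were higher than the mean. Mertk, the kinase of dying-cell uptake, did not pass (0.54 ± 0.47, adjusted p = 0.558), at 14.6, 154 and 284 CPM. Lrp1, a large endocytic receptor, fell, at 82.3, 100.2 and 258 CPM against 148 to 1422 in the 44 (-2.04 ± 0.19, adjusted p = 2.35e-12). Without replicates 3 and 5, 1 of the 3 lower genes still passed, which was Lrp1.

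Lipid-handling genes were higher for 6 and lower for 3 of 22 (median 0.69), beside 14% and 1.33% of all tested genes. Gpnmb, a lysosomal glycoprotein of lipid-laden macrophages, was at 28.95, 103.4 and 363 CPM, with Kupffer cells at 0 to 90.97 and no other population above 59.3; without replicate 6, the highest, its difference was 4.47 in place of 5.43. Apoe, Cd9, Cd63 and Ch25h rose too. Lpl, lipoprotein lipase, fell, at 0.871, 54.3 and 123 CPM against a median of 1104 in Kupffer cells, 854 in adipose and 767 in peritoneal macrophages (-2.72 ± 0.45, adjusted p = 5.56e-06). Fabp4, a fatty acid carrier, also fell and had a median of 0.444 CPM.

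Pattern recognition receptors were higher for 10 of 30 and lower for 1 (median 0.39), beside 14% and 1.33% of all tested genes. Tlr12, a receptor of the group that senses profilin, was at 61.8, 411 and 552 CPM (5.93 ± 0.48, adjusted p = 1.80e-13), and 7 of the 8 lay above the others, whose highest was 229. Clec4n, which encodes dectin-2, was at 184, 390.4 and 661 CPM, with Kupffer cells at 195 to 267. The flagellin sensors Tlr5 and Nlrc4 and the muramyl dipeptide sensor Nod2 rose as well. Ticam2, an adaptor of TLR4, fell, at 4.82, 17.1 and 29.4 CPM against 11.7 to 132 (-1.47 ± 0.30, adjusted p = 1.36e-04).

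Transcription factors of macrophages were higher for 18 of 40 genes and lower for 0 (median 1.10), beside 14% and 1.33% of all tested genes. Without replicates 3 and 5, 16 of the listed factors were higher. Hes1, a target of Notch signalling, was at 211, 604 and 1174 CPM (4.31 ± 0.47, adjusted p = 8.67e-10), with Kupffer cells nearest at 57.97 to 481. Nr4a2, an inducible nuclear receptor, was at 18.4, 62.8 and 216 CPM, and its relatives Nr4a1 and Nr4a3 rose with it. Gata6, the factor of peritoneal macrophages, passed at 0, 1.90 and 13.4 CPM, against 14.2 to 85.6 in peritoneal macrophages; intestinal epithelium also expresses it, and the part of epithelial RNA in its level was not tested. Bhlhe40, Rel, Runx1, Batf and Fosl2 were among the rest.

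**Figure D4:**
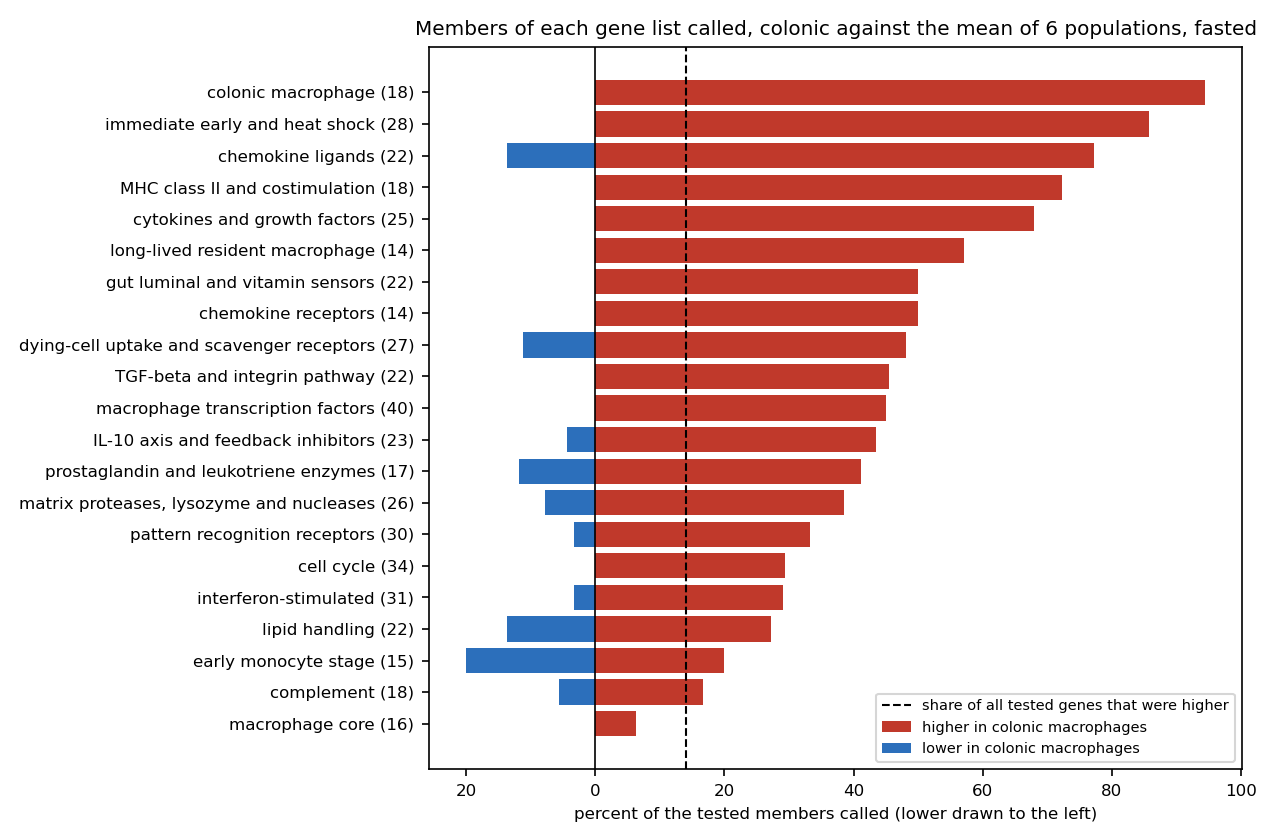
Percent of the tested members of the macrophage core, colonic macrophage and function lists (number tested in brackets) that passed as higher (red, to the right) or lower (blue, to the left) in the macrophages labelled colonic than in the mean of the 6 populations. The dashed line is the 14% of all tested genes that were higher; the colonic macrophage, immediate early and chemokine ligand lists lie farthest to the right of it, and the macrophage core list to the left; lists of other cell types are not drawn.

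Immediate early and heat shock genes, which tissue digestion and sorting are known to induce, were higher for 24 of 28 and lower for 0 (median 1.86), and for 18 without replicates 2 and 8. The all-gene shares were 14% higher and 1.33% lower. Hspa1a, an inducible heat shock protein, was at 952, 1788 and 5520.1 CPM (4.43 ± 0.52, adjusted p = 5.97e-09), against 980.2 to 5190.1 in islet macrophages and medians of 1.69 in monocytes and 4.82 in peritoneal macrophages. Reads of Hspa1a and its near-identical copy Hspa1b cannot be assigned with certainty. The count followed how tissues differ: 27 of 28 genes were higher than in peritoneal macrophages, 24 than in monocytes, 13 than in microglia, 11 than in Kupffer cells, 6 than in adipose macrophages and 1 than in islet macrophages, where 3 were lower. In the same order, 13.3%, 13.7%, 14.4%, 4.68%, 7.48% and 6.33% of all tested genes were higher, and 1.43% were lower than in islet macrophages. Jun, Fos, Egr1 and Atf3 were among the higher genes. The part of cell isolation in the inducible cytokines, chemokines and Ptgs2 given above was not tested.

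The remaining lists hold interferon, complement, cell cycle and muscle-layer genes. Beside each of these lists stand 14% higher and 1.33% lower of all tested genes, with a median of 0.15. Of 31 interferon-stimulated genes 9 were higher and 1 lower (median 0.51). Cxcl9 was at 28.5, 105.8 and 209 CPM and the lower gene, Rtp4, at 8.85, 15.9 and 82.8. Of 18 complement genes 3 were higher (C2, Cd93 and Itgax) and 1 lower, and the share higher was near the 14% of all tested genes. Itgax, which encodes CD11c, was at 303, 488 and 624 CPM and overlapped with islet macrophages at 389 to 846. Of 34 cell cycle genes 10 were higher and 0 lower (median 2.32), but 2 without replicates 3 and 5; Mki67 and Top2a were among the 8 that were lost. Of 10 genes listed for macrophages of the muscle layer 4 were higher (Bmp2, Cd163, Il10 and Mrc1), Bmp2, a growth factor for enteric neurons, at 3.89, 29.3 and 51.3 CPM against 50.4 to 234 in Kupffer cells.

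Genes lower than in each of the 6 populations were few. Plxnb2, a receptor for semaphorins, was at 51.6, 92.2 and 210.1 CPM against 126 to 964 in the 44, and the ranges overlapped (-2.23 ± 0.23, adjusted p = 4.34e-11). The smallest of its 6 differences was -1.36 (adjusted p = 5.97e-04). In single cohorts its difference from the mean, again from mean log2 CPM, ran from -3.11 to -1.75. St3gal5, which makes the ganglioside GM3, was at 0, 1.50 and 6.23 CPM against 0.208 to 829 (-5.36 ± 0.79, adjusted p = 7.33e-07), with medians from 21.7 in monocytes to 418 in peritoneal macrophages. Diaph2, a formin that shapes actin, was at 0.101, 4.09 and 26.6 CPM against 3.09 to 100.7 (-2.41 ± 0.54). The remaining 5 genes lower in all 6 contrasts were Cd300lg, Gm7694, Gm13814, Gm17354 and A230056P14Rik, at no more than 0.0594 CPM in any of the 8. In some of the other populations they were near 0 as well (Cd300lg had a median of 0 in microglia and 0.0710 in islet macrophages), so their differences rest on values at or near 0.

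Specific genes outside the lists of macrophage functions, with known myeloid or lipid roles, are given here because their levels were high, and were chosen after their values were seen. G0s2, an inhibitor of fat breakdown in lipid droplets, was at 145, 487 and 1785 CPM with at most 33.1 elsewhere, and Hilpda, another lipid droplet protein, at 77.1, 304 and 547 with at most 221. Retnlg, a resistin-like protein of neutrophils and macrophages, was at 100.8, 795 and 1540.1 CPM, and all 8 lay above the highest of the 44, 22.6. The neutrophil list gave 256 to 1331 summed CPM without TMM scaling, and 2 of the 8 lay above the highest other library at 1009.7. In it Retnlg had a median of 726, Csf3r, the G-CSF receptor, of 81.7, S100a9 of 8.01 and S100a8 of 1.23. Camp and Ly6g were at 0 in all 8. Ltf, Ngp and Cxcr2 reached 5.73, 6.52 and 25.8, above the 0.169, 2.33 and 16.8 reached in the 44. Csf3r, Mmp8, S100a8 and S100a9 stayed below the highest of the 44. Of its 6 tested genes, Retnlg and S100a9 were higher than the mean of the 6, and in replicate 7 Csf3r exceeded Retnlg. The part of neutrophil RNA in the Retnlg level was not tested. Apol7c, an apolipoprotein L family gene, was at 79.6, 628 and 1577 CPM with at most 21.8, Mmp25, a membrane-bound metalloprotease, at 47.7, 83.5 and 302 with at most 40.9, and Stra6l, a retinol transporter homologue, at 48.6, 185 and 243 with at most 19.4. Mmp25 and Stra6l were not specific without replicates 3 and 5 nor without replicates 2 and 8, and Hilpda was not without replicates 3 and 5.

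The refed libraries, which the choice of the 8 did not use, gave the same kind of comparison in other samples. They hold 9 libraries labelled colonic and 49 of the other populations, among them 4 islet and Kupffer libraries whose descriptions name fasting alone while their titles and treatment labels say refed; these were kept as refed. There 2314 of 15649 genes were higher than the mean of the 6 (14.8%) and 241 lower (1.54%), and 200 were specific and higher (1.28%) and 6 specific and lower (0.0383%). Of the 2258 genes higher in fasted mice, 1494 were higher in refed mice too, which is 66.2% of the fasted and 64.6% of the refed set. Of the 215 lower ones 76 were lower too, and 3 genes were called in opposite directions. Of the 162 specific genes 137 could be tested, 136 were higher, and the genes specific in both made up 63.0% of the fasted and 51% of the refed specific genes. Of the 8 specific lower genes 1, Plxnb2, was specific in refed mice. The refed libraries labelled colonic also carried RNA of other cells. In CPM without TMM scaling, acinar genes summed to 44.6 to 37744 in them, with a median of 18700.5. Plasma cell genes summed to 308 to 164679 and epithelial genes to 257 to 8405. Of the tested members of these lists, 25 of 27, 11 of 12 and 16 of 20 were higher in both sets. The part of this RNA in the overlap was not tested.

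The lists were counted again in the refed set. All 18 colonic macrophage marks were higher, 13 of the 18 antigen presentation genes (12 of them the same), 16 of the 22 chemokine ligands and 17 of the 25 cytokines (16 the same each), and 18 of the 40 transcription factors (15 the same). Immediate early and heat shock genes were higher for 19, all 19 also in fasted mice, and cell cycle genes for 4, against 24 and 10 in fasted mice. Of the early monocyte genes 2 were higher and 6 lower, against 3 and 3 in fasted mice. Whether these counts differ was not tested. Adamdec1 differed by 11.2 in refed and 10.9 in fasted mice, Cd4 by 7.68 and 7.57, and Ptgs2 by 6.84 and 6.09.

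**Figure D5:**
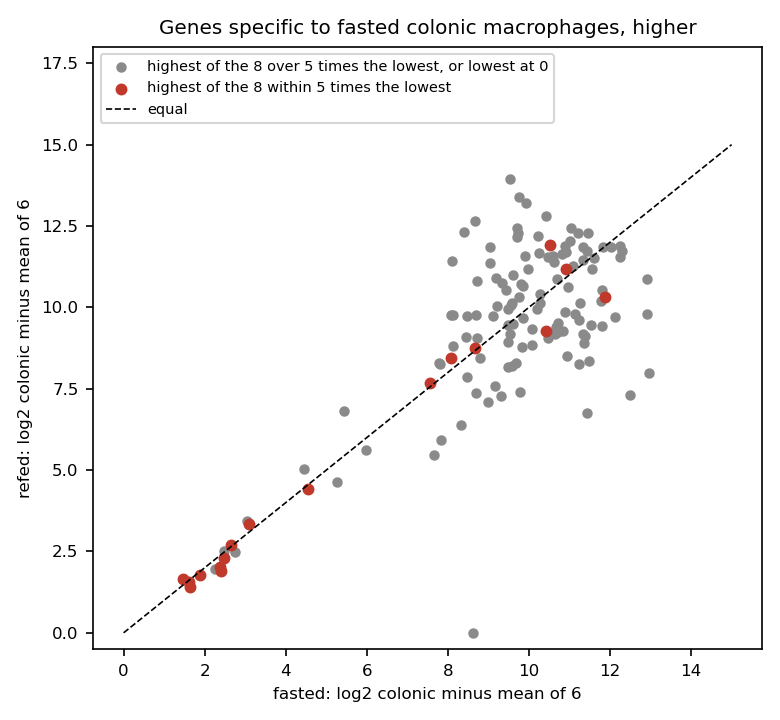
Log2 difference between the macrophages labelled colonic and the mean of the 6 populations in fasted (horizontal) and refed mice (vertical) for the 137 specific higher genes tested in both; red points are genes whose highest fasted colonic library was within 5 times the lowest, grey points the rest, and the dashed line marks equality. The red points lie close to the line and the grey ones scatter around it, and 136 of the 137 passed as higher in refed mice.

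Whether the difference from the other populations changed with feeding was tested directly, over all 110 libraries. Of 18640 genes, 3 had a larger difference in refed mice (0.0161%) and 2 a smaller one (0.0107%), and 696 had an unadjusted p below 0.05, which is 3.73%. With the replicate number as a block in place of cohort, 1 of the 5 was called, Cd300lg, and limma's voom called 13 genes but 0 of the 5, with Muc6 at -0.0426. Cd300lg, an endothelial receptor of the CD300 family, was at 0 in 7 of the 8 fasted libraries and reached 12.9 CPM in the refed ones, with a median of 0.290. Muc6, a mucin of gastric and duodenal glands, reached 46382 CPM in 1 refed library while the refed median was 0.697. Further genes among the 5 were Armc3, at 0 in all 9 refed libraries, and Gm7694, at 0 in all 8 fasted ones.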

How the data were processed

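RNA of sorted macrophages and monocytes was measured by Smart-seq2 in the 110 libraries of the refeeding experiment, of which the 52 fasted ones carry the main comparison. The values are raw read counts per gene, deposited by the authors as 1 table; per the submitters' processing notes, the tools were Trimmomatic 0.36, STAR 2.5.1a and featureCounts, with genome build mm10. No source used here names an annotation release, a strand setting or a rule for multiply aligned reads, so reads of overlapping genes and of near-identical copies (defensins, trypsins, elastases, immunoglobulin and MHC genes) cannot be assigned with certainty. Smart-seq2 counts carry no molecular identifiers, so depth gives counting error only.

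Counts were fitted with edgeR 4.0.16 (filterByExpr by population, TMM scaling, robust quasi-likelihood fit) with population and cohort as terms and Benjamini-Hochberg adjustment over all tested genes. Gene symbols came from GENCODE and matched 50462 of 50686 identifiers. Unmatched identifiers held 0.0071% of the counts. The fit was tested on simulated counts. Alternatives used DESeq2 1.42.0, limma 3.58.1, other scalings, filters and contrasts, and left-out libraries; leaving out colonic replicates 3 and 5 together was chosen after seeing the data. Members and gene lists were chosen with earlier results of these data known, and the lists for Paneth cells and for small-intestinal and colonic absorptive cells were added after values had been seen. Genes were named by rule: the 15 specific higher genes with the largest smallest-of-6 difference (mean of at least 10 CPM, at least 5 CPM in at least 6 libraries, no clone name, on no list of other cells drawn up at the outset), up to 8 specific lower genes, at most 4 called genes per list and at most 2 per direction, a set of known macrophage genes, the 5 genes of the feeding test and the 3 most like the leading gene. Some genes the rule names are not reported here. Genes outside the rule were named after their values were seen.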

Additional observations from a re-analysis of the deposited data

Results flagged for a closer look

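Of 125 sets of 8 fasted values labelled colonic, 20 had a highest library whose gap to the next was above Dixon's critical value for 8 values. Chance flags about 1 in 20 such groups. Replicate 7 was the library concerned in 6 of them, replicate 6 in 4, replicate 5 in 3, replicates 1 and 8 in 2 each, and replicates 2, 3 and 4 in 1 each.

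In replicate 7, Cx3cr1 was at 2512 CPM (next 1365), Ccr2, the monocyte chemokine receptor, at 473 (next 207), Mgl2, a lectin receptor, at 385 (next 171), Itgb5 at 187 (next 79.1), Rtp4 at 82.8 (next 28.8) and Ch25h, which makes an antiviral oxysterol, at 37.97 (next 18.6). In replicate 6, Tnf was at 1488 CPM (next 589), Il10 at 474 (next 164), Gpnmb at 363 (next 157) and Cxcl13 at 21.6 (next 3.59). In replicate 5, Lypd8 was at 781 CPM (next 355), Hkdc1 at 85.5 (next 15.3) and Garnl3 at 6.94 (next 1.70).

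Pdcd1lg2 was at 124 CPM in replicate 1 (next 71.99), as was Cd5l at 17.7 (next 7.19), and Diaph2 was at 26.6 in replicate 3 (next 9.82). In replicate 8, Muc6 was at 194 CPM (next 42.2), and Cd300lg was at 0.0594 with the other 7 libraries at 0. The summed plasma cell genes reached 93099 CPM in replicate 2 (next 38129), and the summed mast cell genes 94.1 in replicate 4 (next 40.5).

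The difference between the macrophages labelled colonic and the other populations itself differed between refed and fasted mice for 5 genes, by edgeR's test of that difference with Benjamini-Hochberg adjustment. The refed minus fasted value was 9.97 on the log2 scale for Gm7694, 8.90 for Muc6, 8.45 for Cd300lg and -7.16 for Armc3. Gm7694 was at 0 in all 8 fasted libraries, Cd300lg in 7 of the 8 and Armc3 in all 9 refed ones, so these values depend on how the fit treats zeros and are no bounds. For Muc6 1 of the 9 refed libraries, at 46382.5 CPM, stood far above the refed median of 0.697.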

How the results depend on the processing

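Settings moved counts more than directions. The count of specific higher genes is given as a percent of 162. With 1 common mean of the 44 libraries, 687 genes were higher than the rest, in place of 2258, and the differences turned to -0.43 for Bmp2, -2.30 for Ccr2, -0.80 for Cd163, -0.12 for Csf1r, -1.05 for Cx3cr1, -1.40 for Fcrls, -0.0751 for Gata6, -0.45 for Itgb5, -4.27 for Ly6c2, -0.99 for Mertk, -0.81 for Olfml3, -0.0623 for Plac8, -0.87 for Serpinb2, -0.15 for Slc40a1, -0.10 for Tgfbr2, -0.47 for Timd4 and -0.35 for Treml4. Requiring 10 counts in 26 libraries left 826 higher and 125 lower genes, 14.2% for specific higher ones, and 661 (adipose), 425 (islet), 575 (Kupffer), 1881 (microglia), 1461 (monocyte) and 1641 (peritoneal) genes called against single populations. No filter gave 3815 higher genes, 153% for specific higher and 15 specific lower ones. A test against a log2 difference of 1 gave 85 lower genes, 3 specific lower ones, and 1040 (adipose), 678 (islet) and 780 (Kupffer) calls. Limma's voom gave 418 lower genes, 387 lower in refed mice, 243% for specific higher and 2 specific lower ones, 2315 calls against Kupffer cells, 13 genes for the feeding test and -0.0426 for Muc6 in it. DESeq2's Wald test gave 465 lower genes, and leaving islet macrophages out of the mean 337.

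Without replicates 3 and 5 the specific higher genes came to 54.3%; without the colonic libraries highest in plasma cell RNA they came to 52.5%, with 5 specific lower ones and 806 calls against islet macrophages; and without the islet libraries that carry 2 replicate numbers there were 5 specific lower genes and 760 such calls. The cause of these moves was not tested, beyond the fewer libraries or genes that a setting leaves.

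Leaving out each colonic library in turn gave 1929 to 2213 higher and 173 to 235 lower genes, 70.4% to 104.3% for specific higher and 6 to 9 specific lower ones, and 1404 to 1632 (adipose), 1021 to 1270 (islet), 1110 to 1317 (Kupffer), 3083 to 3359 (microglia), 2626 to 2839 (monocyte) and 2830 to 3009 (peritoneal) calls. Lrrc32 lost its call without replicate 4 (2.13), and Marco and Timp2 lost theirs in 6 of the 8.

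Other differences changed sign: Adgre1 to 0.0906, 0.24 and 0.0288 without Kupffer cells, peritoneal macrophages, or replicates 3 and 5; Ccr2 to -0.94, -0.15 and -0.36 without microglia, peritoneal macrophages, or replicate 7 (-0.357 to 0.490 over the 8 left out in turn); Csf1r to -0.0372 without monocytes and -0.0436 without peritoneal macrophages; Il10ra to 0.124, 0.0819 and 0.0327 without islet macrophages, microglia, or replicates 3 and 5, and from -0.177 to 0.0352 over the 8 left out in turn; Itgb5, called at 1.44, to -0.15 without peritoneal macrophages; Mertk to -0.60 without monocytes. Tgfbr2 went to -0.0420, -0.157 and -0.0839 without Kupffer cells, monocytes or peritoneal macrophages, -0.0367 with upper quartile scaling, and from -0.0939 to 0.0961 over the 8 left out in turn.

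Libraries that share a number did not deviate together: over 42 such pairs the mean correlation of deviations was -0.0715 and 0 exceeded 0.1, against -0.0682 for 42 pairs of the same cohort with other numbers. With the replicate block in place of cohort there were 2309 higher and 178 lower genes, 66.05% for specific higher and 4 specific lower ones, 636 calls against islet macrophages and 1 gene for the feeding test. The median difference of all genes was 0.15 with TMM, 0.08 with upper quartile and 0.18 with DESeq2's size factors.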
